A study of Drosophila melanogaster with 6 samples.

Results

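Dwg summits were examined at 9 genes that encode components of the Atg8 and Atg12 conjugation systems of autophagy, namely Atg8a (FBgn0052672), Atg8b (FBgn0038539), Atg4a (FBgn0031298), Atg4b (FBgn0038325), Atg7 (FBgn0034366), Atg12 (FBgn0036255), Atg10 (FBgn0040780), Atg5 (FBgn0029943) and Atg16 (FBgn0039705). The genes were taken by name, and each of the 9 matched 1 of the 13945 protein-coding genes on the chromosome arms. Dwg, also known as Zw5, is a zinc finger protein that binds insulators, the DNA elements that separate an enhancer from the promoters around it. Chromatin was immunoprecipitated from S2R+ cells, a Drosophila line of embryonic origin, that expressed Flag-Dwg, and 6 libraries were made, 2 of Flag-Dwg ChIP, 2 with an IgG control antibody and 2 of input. Titles were used to tell the groups apart, since the antibody label of both input libraries also names Dwg. The methods name Gateway plasmids with an actin promoter for expression in these cells, without saying which one the ChIP used, and the tagged protein was measured, not the endogenous one. No library from another cell line or condition was analysed here. The ChIP was set by the authors once against the IgG control (10950 summits) and once against input (12971 summits). A summit marks the single base (1 bp) at which a peak reached its highest signal, and its score is the −log10 of the q-value from MACS2. The lowest scores of the lists were 1.31 and 1.30, and their medians were 12.9 and 20.9. Scores grow with depth and depend on the control, so they were ranked within a list, and no value per replicate or sequencing depth could be taken from either list.

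Atg8 and Atg12 are small proteins that resemble ubiquitin and are joined to their targets by enzymes of the same kind. Atg4 is the protease that trims Atg8 and later frees it from the membrane, Atg7 is the activating enzyme of both systems, and Atg10 passes Atg12 on to Atg5. The Atg12–Atg5 conjugate, held together with Atg16, places Atg8 on the lipid phosphatidylethanolamine of the growing autophagosome, where lipidated Atg8a serves as the usual marker of autophagy in flies. The enzyme that hands Atg8 to the lipid, Atg3, is not 1 of the 9 genes.

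Summits at 4 places near these genes are shown with their dm6 sequence (NCBI RefSeq), namely the highest of all and 3 that stand on the same short string. The first run is the 30 bases at the highest summit, that of Atg4a (chr2L:1081026-1081055, plus strand, 5′ UTR, summit at base 16). The other runs are the DNA between Hibch and Atg4b (chr3R:15356929-15357228, minus strand, intergenic, summit at base 9), the intronic DNA before the innermost start of Atg8a (chrX:10766657-10766956, minus strand, summit at base 165) and the last 200 bases before the start of Tango5, beyond the end of Atg8a (chrX:10764414-10764613, minus strand, intergenic, summit at base 158). Each is written 5′ to 3′ and capitals mark CAGCTGGTC, which was picked by eye after these runs had been read.
Atg4a summit: agtttgtaatcagcgcccgtcactgccaac
Atg4b to Hibch: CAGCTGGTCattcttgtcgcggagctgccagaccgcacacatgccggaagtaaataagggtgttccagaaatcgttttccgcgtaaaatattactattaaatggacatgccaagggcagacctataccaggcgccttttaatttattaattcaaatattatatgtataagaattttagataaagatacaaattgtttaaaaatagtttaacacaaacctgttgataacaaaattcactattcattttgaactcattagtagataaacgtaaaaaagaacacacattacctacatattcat
Atg8a inner start: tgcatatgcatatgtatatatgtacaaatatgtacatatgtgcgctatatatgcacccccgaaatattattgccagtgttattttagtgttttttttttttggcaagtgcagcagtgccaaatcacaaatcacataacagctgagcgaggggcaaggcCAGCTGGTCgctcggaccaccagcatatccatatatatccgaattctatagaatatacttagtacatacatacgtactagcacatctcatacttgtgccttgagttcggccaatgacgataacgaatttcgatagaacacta
Tango5 start to Atg8a end: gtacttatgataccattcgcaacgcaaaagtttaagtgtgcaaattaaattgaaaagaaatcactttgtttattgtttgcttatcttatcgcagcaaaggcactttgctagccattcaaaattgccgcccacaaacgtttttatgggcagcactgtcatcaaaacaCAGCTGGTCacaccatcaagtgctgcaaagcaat

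The middle base of CAGCTGGTC lay 4 bp from the summit at Hibch, 2 bp from the summit before the inner start of Atg8a and 13 bp from the summit at Tango5. The string was present on either strand within 50 bases of 33 summits in the list against the IgG control (0.301% of 10950). In 300 bases around each position it was found at 0.658% of these summits and at 0.502% of the 5′ ends of protein-coding genes. Because the string was chosen from these same sequences, its presence there is a description, and no factor was assigned to it.

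Against the IgG control, 5 of the 9 genes held a summit inside their limits or up to 1000 bp beyond them, as did 52.1% of all protein-coding genes. They were Atg8a, Atg4a, Atg4b, Atg5 and Atg16. Against input, Atg7 and Atg12 were added, which makes 7 of 9, beside 55.5% of all genes. Atg8b and Atg10 had no summit in either list. The count against the IgG control is near the background, and with 9 genes the count against input cannot be read as a difference from it. At 3 genes (Atg8a, Atg4a and Atg4b) a summit against the IgG control lay within 250 bp of a start of the gene's own transcripts, where the background is 32.5%, and against input Atg7, Atg12 and Atg16 joined them to make 6, beside 34.9% of all genes. In the plot of scores by gene, the filled points show these summits near a start.

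**Figure D1:**
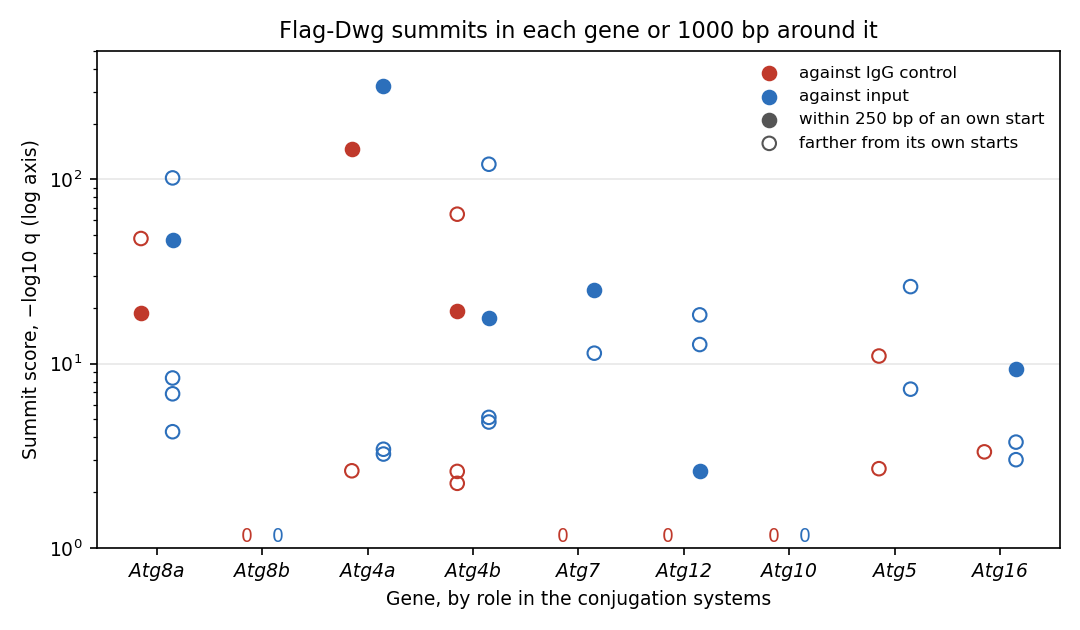
Score of every summit (−log10 q, log axis) within each gene or 1000 bp around it, against the IgG control (red) and against input (blue), with filled points for summits within 250 bp of an own start and 0 for a gene without a summit in that list. Atg4a has the highest score in both lists, 147.2 and 321.5, and Atg8b and Atg10 have no summit.

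Atg8a is the Atg8 protein used throughout fly tissues, and Atg8b is a second copy known mainly from the male germline. The pair differed: Atg8a had 2 summits against the IgG control and 5 against input, and Atg8b had 0 in both. Atg8a lies on chromosome X from 10764878 to 10768338 on the minus strand, and has 3 annotated starts. Its highest summit, at 10764456, lies beyond the 3′ end of the gene and 43 bp upstream of the start of Tango5, the next gene on the same strand, with a score of 47.8 against the IgG control (rank 1874) and 102.5 against input (rank 1963). It lies 2200 bp from the nearest Atg8a start, so the highest score listed for Atg8a belongs by distance to its neighbor.

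The second summit is Atg8a's own by distance. It lies at 10766792 in an intron of the longer transcripts, 136 bp upstream of the innermost start (10766656), with a score of 18.8 (rank 4187), and at 10766794 with 46.8 against input (rank 3844). BTBD9, whose start faces the outermost Atg8a start at a distance of 199 bp, is 1745 bp away from it. Against input alone there were 3 more summits in Atg8a, all weak: 8.36 in an intron, 314 bp upstream of the middle start (10767306), 6.86 in the 3′ UTR and 4.27 in coding sequence 315 bp downstream of the outermost start. The outermost start of Atg8a had no summit within 250 bp in either list.

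Atg8b occupies 17724410 to 17725063 of chromosome 3R (minus strand) and is 654 bp long. The nearest summit in both lists was at 17718183, which is 6227 bp from the gene and 167 bp from a start of osa, with a score of 53.3 against the IgG control. The coding sequences of Atg8a (363 bp) and Atg8b (360 bp) are 81.4% identical over 354 aligned bases, with no identical run longer than 25 bases. Reads that map to several places were removed by the authors. At Atg8b all 2624 31-mers, the overlapping words of 31 bases in the gene and 1000 bp around it, occur once in the genome. Atg8b is also shorter than most of the other members. Of all genes under 1000 bp 26.9% had a summit against the IgG control, and of those from 3000 bp to just under 5000 bp 63.4% did. The start of Lgr1 faces that of Atg8b at 714 bp, and of all genes with a facing start within 1000 bp 76.8% had a summit in that list. Whether length or the facing start bears on the missing summit was not tested.

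Both Atg4 proteases had summits, and they were the genes with the highest scores of the 9 in the window of 1000 bp around each gene. The highest summit of Atg4b lies at the start of its neighbor Hibch. With summits inside the gene only, Atg4b scored 19.35 against the IgG control, next to 18.78 for Atg8a, and 17.75 against input, below Atg8a (46.77) and Atg7 (25.12), and Atg4a was still the highest. Atg4a occupies 1080911 to 1085380 of chromosome 2L (plus strand). The main summit, at 1081041, falls in its 5′ UTR and 130 bp past the only annotated start, in the same position in both lists, with a score of 147.2 against the IgG control (rank 483 of 10950) and 321.5 against input (rank 542 of 12971). The next nearest start, that of ast, is 3093 bp away, and no start on the opposite strand faces Atg4a within 1000 bp. Among the summits within 250 bp of an own start, that of Atg4a was the farthest from the start of another gene. The highest score of Atg4a was above that of 87.8% of all genes with a summit against the IgG control. The other Atg4a summits were near the lower end of the lists, with 2.62 in coding sequence 1247 bp from the start against the IgG control, 3.43 there against input, and 3.23 in the 3′ UTR against input.

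Atg4b occupies 15353720 to 15356924 of chromosome 3R (minus strand), and its start faces that of Hibch, a gene of mitochondrial valine breakdown, at 305 bp. There were 2 summits at this pair of starts, 1 on each side. The higher one is at 15357220 in both lists, 9 bp upstream of the Hibch start and 296 bp upstream of the Atg4b start, with scores of 64.8 (rank 1353) and 121 (rank 1686). The lower one lies in the first intron of Atg4b at 15356744, 180 bp downstream of its start, with 19.4 against the IgG control (rank 4092) and at 15356748 with 17.7 against input (rank 7157). The Hibch side was the stronger in both lists, and the Atg4b side was 1 of 617 shared summits of 9513 (6.49%) whose score was lower against input than against the IgG control. Of the remaining summits, 1 in coding sequence scored 2.60 and 5.11 in the respective lists, and those beyond the 3′ end of Atg4b, in coding sequence of the overlapping gene Tmtc4, scored 2.24 at 15353064 and 4.82 at 15353345.

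**Figure D2:**
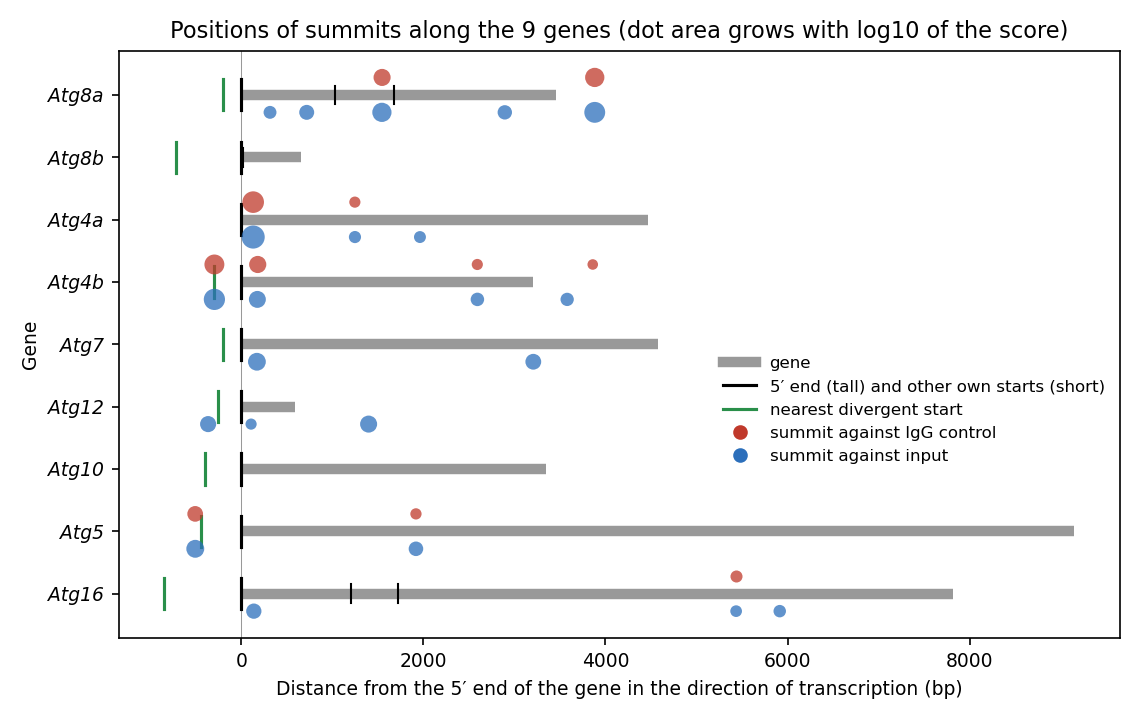
Summits along the 9 genes, as distance in bp from the 5′ end in the direction of transcription, with red dots for the list against the IgG control above each gene, blue dots for the list against input below it, and green marks for the nearest start on the opposite strand within 1000 bp. The main Atg4a summit lies 130 bp inside the gene, and the highest summits of Atg4b and Atg5 lie at the green marks, the starts of Hibch and Dok.

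Atg7, the activating enzyme, had no summit against the IgG control and 2 against input. The gene occupies 18620466 to 18625044 of chromosome 2R (minus strand), and its start faces that of Sec6, a subunit of the exocyst, at 205 bp. The higher summit against input is at 18624873 in coding sequence, 171 bp downstream of the Atg7 start and 376 bp from the Sec6 start, with a score of 25.1 (rank 5839). The other lies at 18621837 in an Atg7 intron, but also in coding sequence of CG5335, a gene on the opposite strand inside Atg7, 296 bp from that gene's start, with 11.4. The nearest summit against the IgG control was 2963 bp from Atg7, 89 bp from the start of Cth (score 11.6). Thus the summit at the Atg7 start depended on which control the ChIP was set against.

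Atg12, the ubiquitin-like protein of the second system, was likewise listed only against input. It is a gene of 593 bp on the plus strand of chromosome 3L (12136967 to 12137559), with CG5645 facing it at 261 bp and the 3′ end of ND-SGDH, a subunit of respiratory complex I, overlapping its own. Its 3 summits were 18.4 at 12138365, 108 bp downstream of a start of ND-SGDH, 12.7 at 12136602, 104 bp downstream of the start of CG5645, and 2.62 at 12137074, 107 bp downstream of the start of Atg12 itself. Each of the 3 starts in this crowded stretch thus had a summit between 104 and 108 bp downstream, and that of Atg12 was the weakest. The nearest summit against the IgG control was 2524 bp from the gene.

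At Atg10, which passes Atg12 on to Atg5, no summit was found, but its start could not be read from uniquely mapped sequence. Atg10 occupies 7832171 to 7835518 of chromosome 2R (plus strand) and shares its annotated start with CG12822. The stretch from 1000 bp upstream to 789 bp downstream of this start is repeated: none of its 1760 31-mers is unique, and the 100 bases around the start occur in 2 places, the other being 3110 bp upstream. At the other 8 genes, every 31-mer within 250 bp of the 5′ end was unique. Over all genes, 324 had a 5′ end where fewer than 50% of these 31-mers were unique, and 1 of them (0.309%) had one of the summits against the IgG control within 250 bp, where 28.7% of the other 13621 did. The absence of a summit at the Atg10 start can therefore not be read as absence of Dwg there, and its cause was not tested. The unique part of the gene had no summit either, and the nearest one in both lists was 6527 bp away, 123 bp from a start of phr.

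Atg5, the target of Atg12, had weak summits, and the higher one lay at its neighbor. The gene lies on chromosome X from 7314622 to 7323770 on the minus strand, within an intron of CG1677, and its start faces that of Dok, an adaptor of receptor signaling, at 444 bp. The higher summit, at 7324277, falls in the 5′ UTR of Dok, 63 bp past the Dok start and 507 bp upstream of the Atg5 start, with scores of 11 against the IgG control (rank 6073) and 26.2 against input (rank 5704). The lower one is in an Atg5 intron at 7321852, 1918 bp downstream of the start, with 2.69 and 7.27. No summit was found within 250 bp of the Atg5 start in either list.

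Of the highest scores of the genes with a summit, that of Atg16, the partner of the Atg12–Atg5 conjugate, was the lowest in both lists. With summits inside the gene only, Atg5 was lower against the IgG control (2.686), and Atg12 (2.621) and Atg5 (7.273) were lower against input. Atg16 occupies 29827281 to 29835101 of chromosome 3R (minus strand), and its outermost start faces the nearest start of Prtl99C at 849 bp. Its single summit against the IgG control is in an intron at 29829665, 3715 bp from the nearest of its 3 starts, with a score of 3.32 (rank 9819). Against input that summit scored 3.01, a second one at 29829187 in an intron scored 3.75, and the highest, 9.38 (rank 9554) at 29834964, lay in the 5′ UTR and 137 bp past the outermost start. As at Atg7 and Atg12, the summit near the start was present against input only.

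Of the summits at these genes, 7 of 11 against the IgG control and 14 of 22 against input were nearer to an own start than to another gene's. The same share over the summits of all genes was not taken, so these counts cannot be read as high or low. Of the 5 genes with a summit against the IgG control, the highest summit was nearest to an own start at Atg4a and Atg16 (2 of 5, beside 55.5% of all genes with such a summit). Against input this held for Atg4a, Atg7 and Atg16 (3 of 7, beside 56.4%). With so few genes, neither count can be read as a difference from all genes. For Atg8a, Atg4b and Atg5 the nearer starts were those of Tango5, Hibch and Dok in both lists, at 43, 9 and 63 bp (62 bp against input), and for Atg12 that of ND-SGDH. Each of the 5 genes had some summit against the IgG control for which its own start was the nearest. Of all genes 38.6% had such a summit, where 52.1% had any summit in that list. Against input this held for 7 members, beside 41.9% of all genes. These counts were not tested. In the plot of the distances, the summits with the neighbor's start nearer fall below the diagonal.

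**Figure D3:**
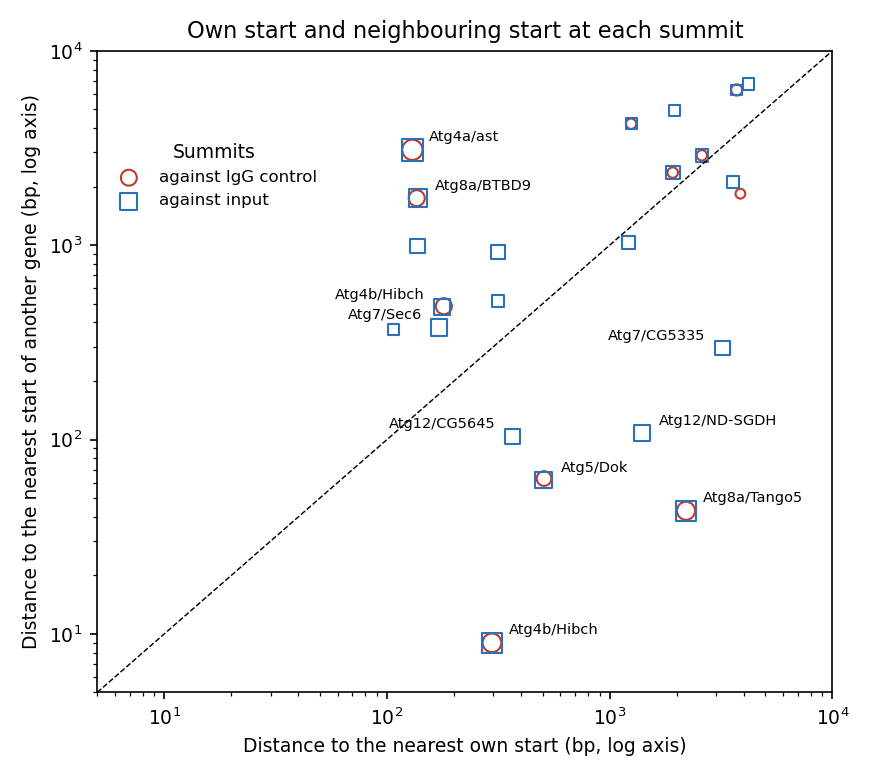
Distance of every summit at the 9 genes to the nearest own start (horizontal, bp, log axis) and to the nearest start of another gene (vertical, bp, log axis), against the IgG control (red circles) and input (blue squares), with symbol area growing with log10 of the score, labels naming the gene and that neighbor at the higher summits against input, and a dashed line of equal distance. The Hibch summit at 9 bp, the Tango5 summit at 43 bp and the Dok summit at 62 to 63 bp lie below the line, and the Atg4a summit at 130 bp lies above it.

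The crowding around these genes was measured from the annotation. A start on the opposite strand faced the 5′ end within 1000 bp at 8 of the 9 genes (35.2% of all genes) and within 500 bp at 6 (26.4% of all genes). Genes with such a facing start within 1000 bp had a summit against the IgG control in 76.8% of cases, and the rest in 38.6%. Against input these shares were 79.5% and 42.5%. Of the 8 members in that class 4 had a summit against the IgG control and 6 against input, and Atg4a, which is not in it, had the highest score. The summits within 250 bp of an own start lay downstream of it at 5 of the 6 genes in the list against input, at 107 bp (Atg12), 130 bp (Atg4a), 137 bp (Atg16), 171 bp (Atg7) and 176 bp (Atg4b), and upstream at Atg8a (138 bp). Of all 4856 summits against input within 250 bp of their nearest start, 59.4% lay downstream of it and 28.2% between 100 and 200 bp downstream. Against the IgG control the summits near an own start lay downstream at Atg4a (130 bp) and Atg4b (180 bp) and upstream at Atg8a (136 bp). Of all 4421 such summits in that list, 60.4% lay downstream. The Atg12 summit at 107 bp scored only 2.62. With so few genes, these counts cannot be read as a difference from all summits.

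The summits of these genes that scored at least 26.2 against input were present in both lists. At the 9 genes, 10 of 11 summits in the list against the IgG control had a counterpart against input no more than 100 bp away (86.9% in the whole list), and such pairs were found at 5 genes, beside 50.1% of all genes. In the other direction 10 of 22 summits against input were shared, where the share in the whole list was 73.3%. The 12 that were not shared lay at Atg8a, Atg4a, Atg4b, Atg7, Atg12 and Atg16 and had scores from 2.62 to 25.1, and the median of all 3458 such summits was 8.07. Of those 3458, 14% had a score of at least 20, as the summit at the Atg7 start did. Both lists rest on the same Flag-Dwg ChIP libraries, so a shared summit is not a replicate, and the signal of the IgG control and of input at these positions was not used here.

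**Figure D4:**
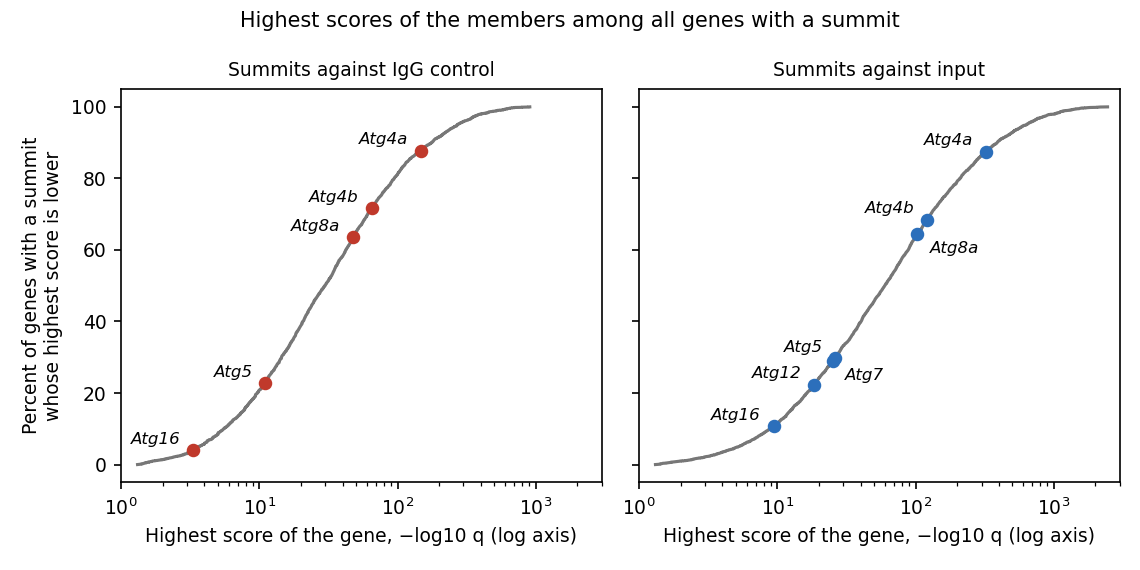
Highest score of each gene (horizontal, −log10 q, log axis) against the percent of genes with a summit whose highest score is lower (vertical), for all protein-coding genes with a summit (gray line) and for the members (points), in the list against the IgG control (left) and against input (right). Atg4a stands above 87.8% and 87.5% of genes, and Atg16 above 4.08% and 10.7%.

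Short motifs were counted on both strands in the 300 bases around each summit. For GCTGCG and GCTGAG no factor is named. TATCGATA, the element of the factor DREF, was absent from all summits at the 9 genes and present at 2.40% of summits against the IgG control and at 8.53% of gene 5′ ends. CGATA, which is bound by the insulator protein BEAF-32 and lies within TATCGATA, occurred at 4 of the 11 members' summits in the list against the IgG control, with 4 matches at the Dok start and 2 each at the main Atg4a summit and both Atg8a summits, and at 37.2% of all such summits. GAGAG, the core of GAGA factor sites, also occurred at 4 of the 11, near Tango5 and at weak summits of Atg4b, Atg5 and Atg16 with 1 match each, beside 34.9% of all summits. In the same list GCTGCG occurred at the Dok start (2 matches), near Tango5 and in the Atg4b intron, beside 23.4% of all summits, and GCTGAG at the inner start of Atg8a, beside 13.0%. At gene 5′ ends the shares were 47.7% for CGATA, 30.7% for GAGAG, 16.5% for GCTGCG and 11.3% for GCTGAG. The main Atg4a summit thus carried CGATA and none of the other strings, and the Hibch summit carried none of these 5. The GC content around the 11 summits ran from 38.3% at Tango5 to 52.3% at the weak Atg4a summit, and the median of all summits was 46.7%.

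The rest of the core autophagy machinery was taken from a list of 14 genes. Of these, 13 had a summit against the IgG control and 13 against input, with Atg101 the exception in both lists, beside 5 and 7 of the 9 conjugation genes and 52.1% and 55.5% of all genes. Against the IgG control, the median of the highest scores was 42.1 for those 13 genes, 47.8 for the 5 conjugation genes with a summit and 29.7 for all genes with a summit. The 47.8 is the Atg8a summit near the Tango5 start. With summits inside the gene only, the 5 genes scored 147.2, 19.35, 18.78, 3.318 and 2.686 against the IgG control. This was not done for the other sets. Against input the medians were 83.6 for the 13 genes, 26.2 for the 7 conjugation genes with a summit and 59.7 for all genes. Among genes with a summit, the conjugation genes thus had the highest median of the 3 against the IgG control and the lowest against input. Genes without a summit do not enter these medians, and a larger part of the conjugation genes than of the 14 was left out. The genes behind these medians differ, since Atg7 (25.12) and Atg12 (18.36) entered only against input. The other 5 scored 321.5, 120.7, 102.5, 26.25 and 9.383 against input. The 102.5 in the middle is again the Atg8a summit near the Tango5 start. The median of 26.2 is the Atg5 summit at the Dok start. Atg1, the kinase that starts autophagy, had the highest score of the list, 375.2, which is above the 147.2 of Atg4a. Atg3, the enzyme that hands Atg8 to the lipid, scored 42.1, and was named, as were Atg101 and Atg9, after the values had been seen. In each list 8 of the 14 genes had a summit within 250 bp of an own start, beside 32.5% and 34.9% of all genes, and 7 of these genes were the same, since Atg3 had one against the IgG control only and Atg9 against input only. Since both sets of genes were chosen with results of these data known, the difference in counts was not tested.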

How the data were processed

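ChIP-seq of Flag-Dwg in S2R+ cells was used as deposited, in 2 lists of summits. The authors trimmed reads with Trim Galore 0.6.4, mapped them to dm6 with Bowtie2 2.3.5.1 (local alignment), removed multiply mapped reads with SAMtools 1.6 and ran MACS2 2.2.6 on paired reads. The score deposited by the authors is the −log10 of the q-value, and the lowest score against the IgG control stands for a q-value of 0.049. Whether replicates were merged before peak calling is not given in the sources used here. Depth, peak widths and control signal were not used here.

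Genes came from Ensembl release 115 and sequence from NCBI's copy of the same assembly (Release 6). All summits lie within its arms. Positions are 1-based. A gene held a summit within its limits or 1000 bp around them, an own start was any annotated transcript start of the gene, and summits within 100 bp were shared. An own start counted as nearest when it was nearer than the start of any other protein-coding gene. Noncoding genes were left out. One listed symbol, smt3, was matched through its current name, Sumo. No test was run, because the lists give no value per library. The assignment of summits to genes was tested on planted summits first. By rule, the genes named are the 9 members, for each summit the other gene with the nearest start, and the highest gene of 2 further lists. Genes that face or overlap a member were named besides. Alternatives changed the window, the distances and the lowest score. Members, lists and motifs were chosen with earlier results of these data known, and CAGCTGGTC after the sequences had been seen. Python 3.11.15, NumPy 2.4.6, pandas 2.3.3, Biopython 1.88 and matplotlib 3.10.9 were used.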

Additional observations from a re-analysis of the deposited data

How the results depend on the processing

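No paired analysis was possible because neither list holds values for single replicates, and for the same reason no replicate could be left out. Of 37 recomputed counts of members, 26 stayed within 1.5 times the reported count and 11 moved. With a score of at least 20, a summit against the IgG control was left at 3 genes, beside 31.8% of all genes. One shared with input was left at 3 (31.6% of all genes) and one near an own start at 1 (17.6%). From −1000 to +100 bp of an own start, 3 genes had a summit against the IgG control (36.2% of all genes) and 4 against input (39.2%). By construction this window leaves out summits such as that of Atg4a. Near an own start the count was 0 within 100 bp (19.4% of all genes) and 6 in the list against input (34.9%). With scores of at least 5, 10 or 20, 4, 4 and 3 genes were left with a summit against the IgG control. The highest summit was nearest to an own start at 1 of them each time. Of all genes with such a summit this held for 55.2%, 54.8% and 54.5%. With summits inside the gene only it held at all 5 members with one, beside 81.5% of all genes with one. Of 24 recomputed highest scores 17 stayed, and with summits inside the gene only 7 fell, to 19.35 (Atg4b), 2.69 (Atg5) and 18.78 (Atg8a) against the IgG control and to 17.75 (Atg4b), 7.27 (Atg5), 46.77 (Atg8a) and 2.62 (Atg12) against input. The unknown depth limits every score and every missing summit.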

Other observations

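The conjugation systems of other ubiquitin-like proteins were looked at in the same way, with a list of 13 genes for Sumo, Nedd8, Ufm1 and Urm1 and their activating and conjugating enzymes. Summits inside the gene or up to 1000 bp beyond it were listed for 12 of the 13 in both lists, beside 52.1% of all genes against the IgG control and 55.5% against input, and Urm1, named after its values were seen, had none. The highest scores of the 12 genes ran from 4.22 to 141.7 against the IgG control, with Sumo at the top. Against the IgG control the median of the highest scores was 25.0, beside 47.8 for the 5 Atg8 and Atg12 conjugation genes with a summit and 29.7 for all genes with one. The 47.8 is the Atg8a summit near the Tango5 start. Against input the median of the 12 genes was 47.5, beside 59.7 for all genes and 26.2 for 7 Atg genes, which include Atg7 and Atg12. The 5 Atg genes listed against the IgG control had a middle score of 102.5 against input, which is that same Atg8a summit. In the window of 1000 bp, the order of the gene sets thus differed between the lists with Atg7 and Atg12 included and not without them. With summits inside the gene only, the 5 genes scored 321.5, 46.77, 17.75, 9.383 and 7.273 against input. The other sets were not recomputed in this way, so their order there is not known. Against the IgG control the highest summit was nearest to an own start at 9 of the 12 genes, where it was at 2 of the 5 Atg genes and at 55.5% of all genes with a summit. These differences were not tested.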
